A study of Mus musculus with 6 samples.

Results

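The Wnt genes described here are the secreted ligands, their receptors and the modulators of that signal, compared between Thy1-positive and Thy1-negative cells of the prepubertal mouse testis. They were chosen by gene symbol: all genes named Wnt, Fzd, Sfrp, Dkk or Rspo with a number, Lgr4, Lgr5 and Lgr6, and Lrp5, Lrp6, Axin1, Axin2, Lef1, Tcf7l1, Tcf7l2, Porcn and Wif1. This gave 54 of the 18193 genes that the Affymetrix array measures with a probe set of 1 gene symbol, through 104 of 45037 probe sets. Each gene is represented by its probe set with the highest mean, and the choice did not use the difference between fractions. Testis cells had been separated by a magnetic sort for Thy1, a surface glycoprotein, and the Thy1-positive fraction held more transplantable spermatogonial stem cells, per the labels. Thy1-negative arrays N1, N2 and N3 and Thy1-positive arrays P1, P2 and P3 come from independent donor preparations, 3 per fraction, with no treatment named. Strain, genotype, exact age and the number of animals pooled per preparation are not given in the sources used here. Both fractions are mixtures of cell types, so for every gene below fewer cells of a type and less RNA per cell cannot be told apart.

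Wnt proteins are lipid-modified secreted ligands that bind a Frizzled receptor together with an LRP5 or LRP6 co-receptor, which stabilises beta-catenin and lets it act with TCF/LEF factors at target genes. R-spondins bind LGR receptors and strengthen the signal by removing the ubiquitin ligases ZNRF3 and RNF43 from the cell surface. SFRP proteins and WIF1 bind the ligand, and Dickkopf proteins bind the LRP co-receptors. Frizzled receptors also serve a branch without beta-catenin that orients cells within a tissue. In the testis, Sertoli cells produce Wnt ligands, and spermatogonia are among the cells that respond to them.

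Levels are log2(intensity + 1). Each difference is the mean of P1, P2 and P3 less that of N1, N2 and N3, and limma gave its SE and a p adjusted over all 18193 genes. A gene is said to have risen or fallen where that p was below 0.05. Thy1 itself measured 2.35, 2.35 and 2.74 on N1, N2 and N3 and 6.05, 6.52 and 6.05 on P1, P2 and P3, in the direction of the labels. The arrays had median intensities of 15.8 to 17.6. On the first principal component, which held 86.8% of the variance, N2 lay at -44.2 and P2 at 56.2, nearer to the other fraction than N1 and N3 (-88.6 and -79.5) and P1 and P3 (80.2 and 75.9). Results are therefore also given without single arrays where a call changed.

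Of the 54 Wnt genes, 5 rose and 9 fell, together 25.9%, where 33.0% of all genes passed the test. Higher calls made up 9.26% of the Wnt genes against 18.5% of all genes, and lower calls 16.7% against 14.4%. For 24 of the 54 the fractions were free of overlap, as they were for 51.4% of all genes. The median difference was 0.00 over the Wnt genes and 0.01 over all genes. Many Wnt genes were dim: 11 lay below the 25th percentile of the arrays (2.68) and 25 below their median (4.14) in both fractions. The genes that rose were Rspo2, Sfrp2, Dkk3, Wnt7b and Fzd3, and those that fell were Wnt6, Wnt5a, Fzd1, Fzd5, Fzd6, Fzd7, Fzd8, Lgr4 and Sfrp4. Rspo2, Sfrp2, Dkk3, Wnt7b, Fzd5, Fzd6 and Lgr4 passed in each of the 6 fits that left out 1 array. The number of Wnt genes that fell was 3 without N3, 5 without P1 and 3 without P3, while the number that rose stayed between 4 and 6. Calls over all genes dropped in the same 3 fits. Of all genes, 1302, 1629 and 1163 fell there, against 2628 with all arrays. Those that rose numbered 1473, 1901 and 1350, against 3368.

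**Figure D1:**
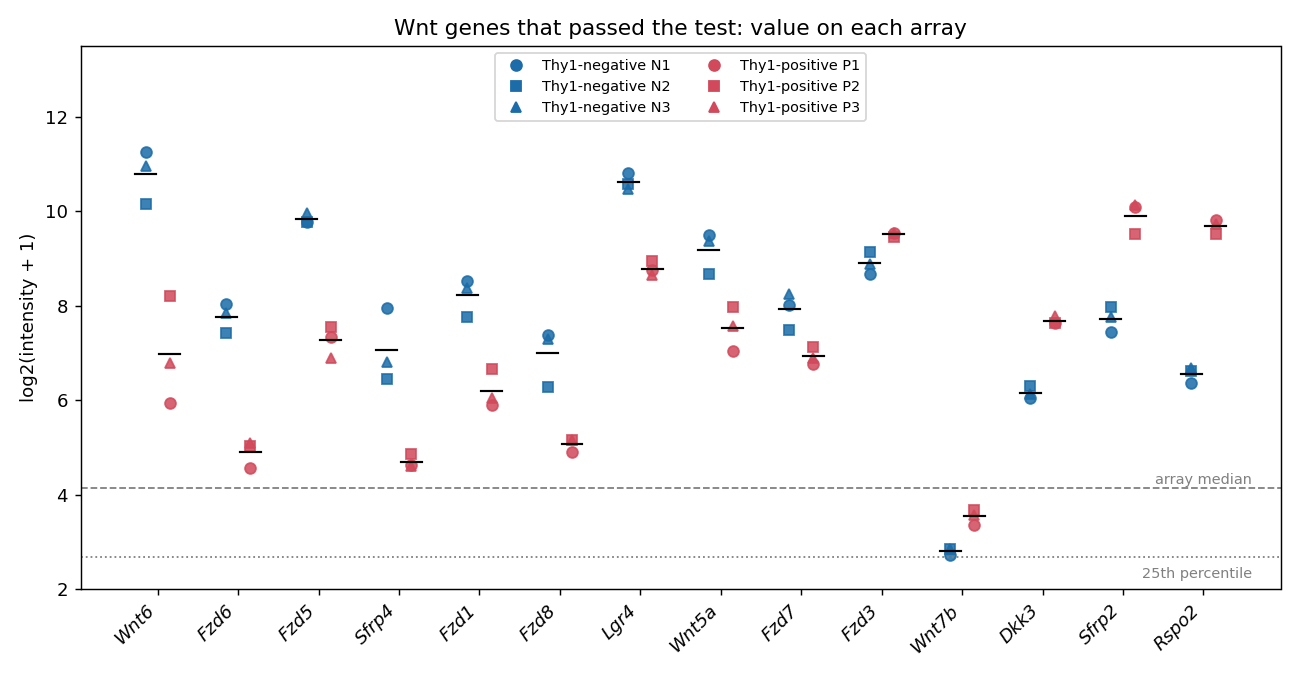
Value of the 14 Wnt genes that passed the test on each of the 6 arrays, as log2(intensity + 1) on the vertical axis, ordered by their difference, with blue points for Thy1-negative and red points for Thy1-positive arrays and black bars for the mean of 3. Fractions do not overlap for any of the 14, and Wnt7b is the gene that lies below the array median (dashed line) in both fractions; heights of different genes are not comparable.

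Markers of testis cell types were read from the same arrays, beside the Wnt genes. For the counts that follow, 18.5% of all genes rose and 14.4% fell. Of 19 Sertoli cell genes 17 fell and 1 rose, with a median difference of -4.05, and their summed intensity was 137723 to 173713 in Thy1-negative and 24921 to 49605 in Thy1-positive arrays, where P2 was highest and 2 of the 19 lay below the 25th percentile. Peritubular myoid genes fell in 8 of 10 cases, with summed intensities of 18214 to 20592 against 2625 to 3668. Undifferentiated spermatogonia genes rose in 15 of 18 cases (3781 to 7269 in Thy1-negative against 23165 to 23711 in Thy1-positive arrays). All 15 macrophage genes rose, from 173 to 210 in Thy1-negative to 17156 to 23982 in Thy1-positive arrays, and 4 of them were below the 25th percentile in Thy1-negative cells. Of 10 interstitial mesenchyme genes 1 fell, and their sum ranged from 17785 to 46096 over the Thy1-positive arrays, with P2 highest. Of 6 Leydig cell genes 3 fell (5334 to 10786 in Thy1-negative against 2499 to 3953 in Thy1-positive arrays). Endothelial genes summed to 110 to 190 and 121 to 194, and of 10 measured 2 rose and 1 fell. Pan-germline genes summed to 15545 to 46340 against 68189 to 69993, of which 6 of 16 rose, and T lymphocyte genes to 50.6 to 66.3 against 415 to 444, of which 3 of 7 rose. The part of any of these cell types in the Wnt results was not tested.

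Among the ligands, Wnt6 and Wnt5a fell, Wnt7b rose and 16 of 19 did not pass. The share of called ligands was 15.8%, beside the 33.0% of all genes. Wnt6, a ligand of epithelia, measured 11.26, 10.15 and 10.96 on N1, N2 and N3 and 5.94, 8.21 and 6.78 on P1, P2 and P3. Every Thy1-negative array lay above every Thy1-positive one, although P2 came closest to the Thy1-negative values. Wnt6 fell by 3.81 (SE 0.68, adjusted p = 0.0169), which is 14.0-fold. A second probe set of Wnt6, of a type that can cross-hybridise, gave -3.75 (SE 0.78). The decrease of Wnt6 did not pass without N1 (-3.58), N3 (-3.73) or P3 (-3.71). Wnt5a, a ligand best known for signalling without beta-catenin, stood at 9.50, 8.68 and 9.37 in Thy1-negative and 7.03, 7.96 and 7.57 in Thy1-positive arrays. The fractions did not overlap, and again the arrays numbered 2 were closest to each other. Wnt5a fell by 1.66 (SE 0.34, adjusted p = 0.0245), or 3.17-fold. A second bright probe set of Wnt5a passed at -1.75 and another missed the test at -1.39. The call of Wnt5a was lost without N1 (-1.51), N3 (-1.57), P1 (-1.42) or P3 (-1.69).

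Wnt7b rose from 2.73, 2.85 and 2.85 to 3.36, 3.68 and 3.58 (0.73, SE 0.10, adjusted p = 0.00819). All of these values lie below the array median, and the second probe set of Wnt7b differed by 0.01. Wnt5b (6.47 against 6.46 on average), a close relative of Wnt5a, and Wnt9a (4.56 against 5.00) were the other ligands above the array median in both fractions. Neither passed: the 95% interval of the difference was -0.51 to 0.49 for Wnt5b, whose probe set is of a type that can cross-hybridise, and -0.80 to 1.67 for Wnt9a. P2 was the highest array for Wnt9a, at 5.90. Wnt4, a ligand needed for ovary and kidney development, measured 3.50, 3.30 and 3.50 against 2.73, 3.23 and 3.50 and overlapped between fractions. Wnt7a lay at the array median (4.14 against 4.34, adjusted p = 0.126) and passed without P1 (0.27). Wnt3 and Wnt3a lay just below it, at 3.83 against 3.90 and 4.05 against 4.08. Wnt1, Wnt2, Wnt2b, Wnt8b, Wnt9b, Wnt10a, Wnt10b, Wnt11 and Wnt16 were below the 25th percentile in both fractions, and Wnt8a lay just above it at 2.80 in both. For these 10 ligands the differences were between -0.00 and 0.21, and the largest, of Wnt10a, rests on P1 alone (2.98 against 2.37 to 2.38 on the other 5 arrays). RNA below the reach of these probe sets was not measured, so a decrease, or a difference that stays below that reach, could not be seen. Porcn, the acyltransferase that lipid-modifies Wnt ligands, measured 5.52, 5.57 and 5.25 against 4.25, 5.47 and 4.01. P2 lay within the Thy1-negative range, and the difference of -0.87 (SE 0.43, adjusted p = 0.199) passed without P2 (-1.32).

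**Figure D2:**
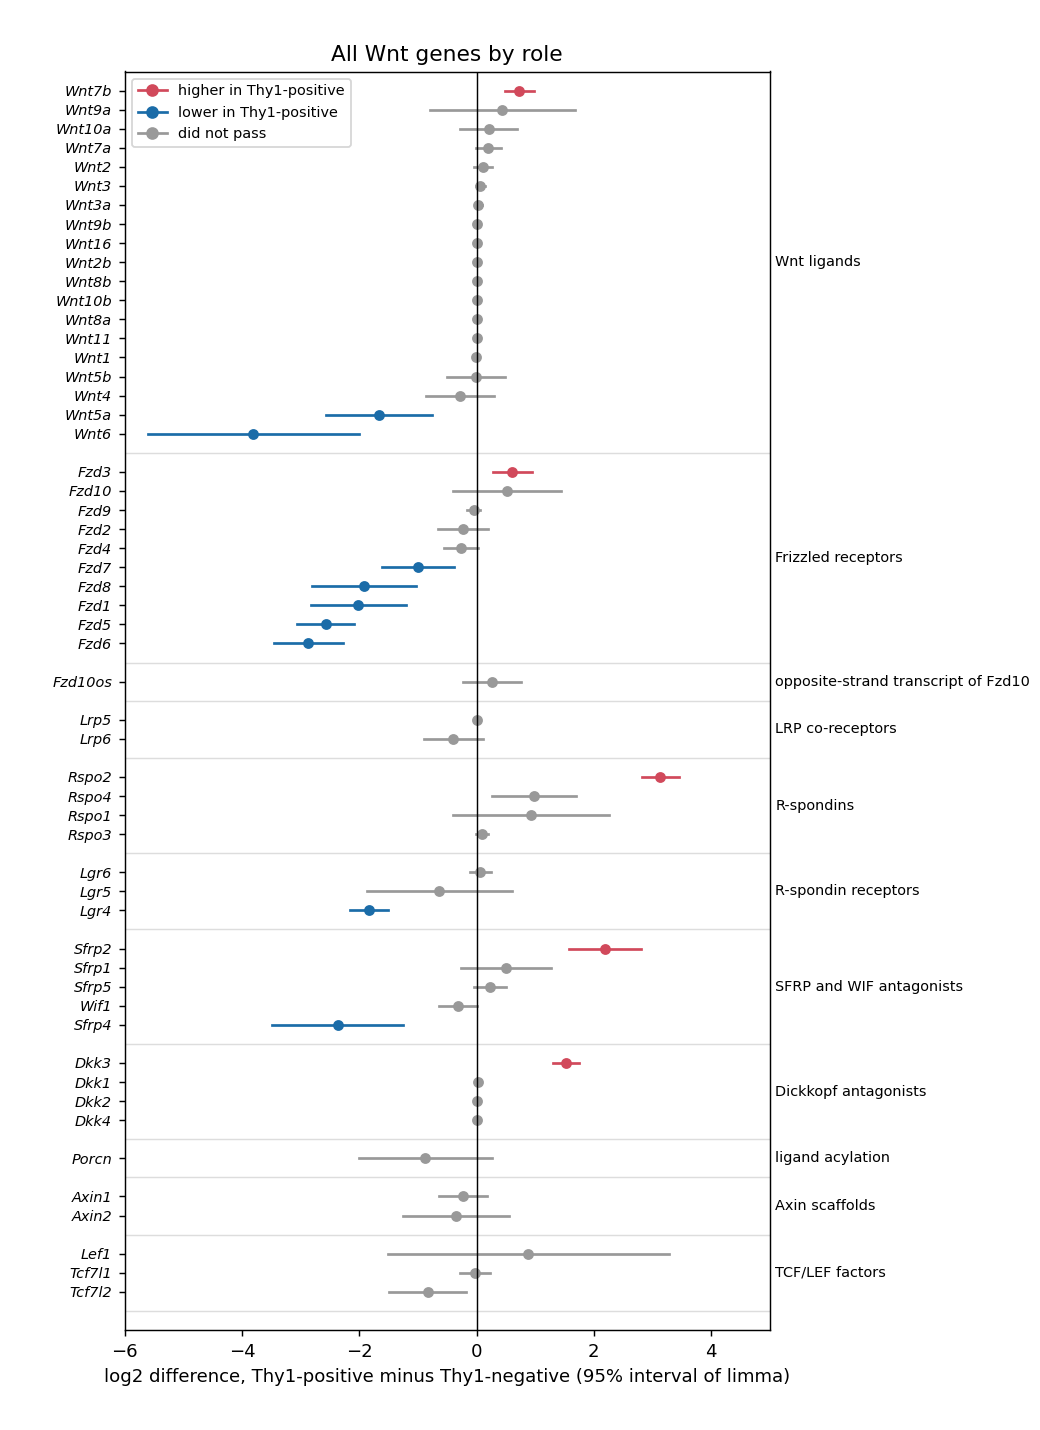
Log2 difference (Thy1-positive minus Thy1-negative, horizontal axis) of all 54 Wnt genes by role, each point with the 95% interval of limma, in red for genes that rose, blue for genes that fell and grey for genes that did not pass. Of the 9 decreases 5 are Frizzled receptors, 2 are ligands (Wnt6 and Wnt5a) and the others are Lgr4 and Sfrp4, and 16 of 19 ligands did not pass.

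Of the 10 Frizzled receptor genes, 5 fell and 1 rose, 60% in all beside the 33.0% of all genes. Fzd6 measured 8.03, 7.43 and 7.85 on the Thy1-negative and 4.57, 5.03 and 5.08 on the Thy1-positive arrays. Its fractions were 2.34 apart at their closest, and it fell by 2.87 (SE 0.22, adjusted p = 0.00294), or 7.32-fold. Fzd5 measured 9.77, 9.78 and 9.96 against 7.34, 7.55 and 6.90, with N1, N2 and N3 nearly equal. It fell by 2.57 (SE 0.19, adjusted p = 0.00249), which is 5.95-fold. Fzd1 stood at 8.52, 7.76 and 8.37 against 5.89, 6.67 and 6.04, and fell by 2.02 (SE 0.31, adjusted p = 0.0116), or 4.04-fold. Without N3 or P3 the decrease of Fzd1 did not pass (-1.94 in both fits). Fzd8 stood at 7.38, 6.28 and 7.30 against 4.90, 5.15 and 5.15 and fell by 1.92 (SE 0.34, adjusted p = 0.0160). N2 was the lowest of its fraction, and the call of Fzd8 was lost without N1 (-1.73), N3 (-1.77), P1 (-1.84) or P3 (-1.97). Fzd7 had the smallest decrease of these receptors, from 8.02, 7.48 and 8.25 to 6.76, 7.12 and 6.90 (-0.99, SE 0.23, adjusted p = 0.0334). Fzd7 passed without N2, but not without N1 (-0.94), N3 (-0.83), P1 (-0.91), P2 (-1.09) or P3 (-0.98).

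Fzd3, a receptor known for its role in axon guidance and planar polarity, was the Frizzled gene that rose. It measured 8.68, 9.13 and 8.88 on the Thy1-negative and 9.55, 9.44 and 9.53 on the Thy1-positive arrays, without overlap, and rose by 0.61 (SE 0.12, adjusted p = 0.0233). Without N3 (0.61), P1 (0.59), P2 (0.65) or P3 (0.60) the rise of Fzd3 did not pass. Its 6 probe sets disagreed: besides the one kept, 2 rose (1.41 and 0.97), while a bright one differed by -0.73 (9.66, 8.99 and 9.35 against 8.96, 8.49 and 8.36) and missed the test over all probe sets. Fzd2 did not pass (-0.23, SE 0.16), with P2 at 7.48 above all Thy1-negative arrays, and another of its probe sets differed by -1.20, also without a call. Fzd4, a receptor of blood vessels, differed by -0.26 (95% interval -0.55 to 0.03), and passed without N1 (-0.37). Fzd9 (2.80 against 2.75) and Fzd10 (3.44 against 3.97) were below the array median in both fractions, as was Fzd10os (2.82 against 3.09), a long non-coding RNA of the opposite strand that the symbol rule takes in and that is no receptor. Both Fzd10 (0.53) and Fzd10os (0.27) missed the test.

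The co-receptor Lrp6 measured 9.09, 8.72 and 8.79 against 8.25, 8.81 and 8.35 and did not pass (-0.40, SE 0.19, adjusted p = 0.191). A second, dimmer probe set of Lrp6 went the other way and rose over all probe sets (7.07, 7.47 and 7.41 against 8.01, 7.92 and 8.13, a difference of 0.70 with adjusted p = 0.0238). The probe sets of this gene thus give no single direction. Lrp5, the other co-receptor, measured 2.79 on average in both fractions, close to the 25th percentile.

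Among the R-spondins, Rspo2 rose more than any other Wnt gene of the 54. It measured 6.37, 6.61 and 6.67 in Thy1-negative and 9.82, 9.51 and 9.72 in Thy1-positive arrays. Replicates spanned 0.304 in the Thy1-negative and 0.303 in the Thy1-positive fraction, and the fractions were far apart. The increase was 3.13 (SE 0.12, adjusted p = 0.000468), or 8.77-fold, and it lay between 3.04 and 3.22 when single arrays were left out. The second probe set of Rspo2 was dim (2.94 to 3.09 against 3.19 to 3.25) and rose by 0.23. Rspo4 measured 3.77, 3.98 and 3.98 against 4.40, 5.39 and 4.88, did not overlap and missed the test (0.98, SE 0.27, adjusted p = 0.0524), but passed without P1 (1.23). Rspo1, which promotes ovary development, measured 3.07, 3.74 and 3.36 against 3.44, 5.21 and 4.30 and overlapped (adjusted p = 0.242). Rspo3 was below the array median (3.27 against 3.36) and differed by 0.09, passing without N1 (0.13).

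The R-spondin receptor Lgr4 moved the opposite way from Rspo2. Lgr4 measured 10.80, 10.58 and 10.47 on N1, N2 and N3 and 8.75, 8.95 and 8.65 on P1, P2 and P3, with tight replicates and no overlap. It fell by 1.84 (SE 0.12, adjusted p = 0.00198), which is 3.57-fold, and the difference lay between -1.92 and -1.74 without single arrays. Lgr5, a marker of stem cells in the gut, measured 4.14 on N1, 2.50 and 2.77 on N2 and N3, and 2.48 to 2.52 on the Thy1-positive arrays. N1 thus stood alone at the array median, and without it the difference of -0.63 became -0.13; neither passed. Lgr6 measured 3.29, 3.50 and 3.50 against 3.50, 3.49 and 3.50.

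The secreted antagonists went in both directions. Sfrp2 measured 7.43, 7.96 and 7.76 in Thy1-negative and 10.08, 9.51 and 10.13 in Thy1-positive arrays, where P2 was the lowest. It rose by 2.19 (SE 0.23, adjusted p = 0.00548), or 4.55-fold, and lay between 2.05 and 2.39 without single arrays. Its relative Sfrp4 fell from 7.94, 6.44 and 6.81 to 4.63, 4.86 and 4.61. N1 was the highest array, and without it the difference of Sfrp4 was -1.93 in place of -2.36 (SE 0.43, adjusted p = 0.0169). The call of Sfrp4 was lost without N3 (-2.49), P1 (-2.33) or P3 (-2.32). Sfrp1 was bright in both fractions (9.10, 8.36 and 8.73 against 8.86, 9.65 and 9.19), overlapped and did not pass (0.50, SE 0.29). Its 4 further probe sets lay between -0.11 and 0.63 without a call. Sfrp5 lay below the array median (3.59 against 3.82) and passed without P2 (0.32). Wif1 measured 5.81, 5.65 and 6.10 against 5.51, 5.58 and 5.54, just without overlap, and differed by -0.31 (95% interval -0.64 to 0.01), passing without N2 (-0.42).

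Dkk3 was the Dickkopf gene above background. This divergent family member, which is not known as a classical LRP antagonist, measured 6.04, 6.30 and 6.12 against 7.64, 7.64 and 7.77. Both fractions were tight, and Dkk3 rose by 1.53 (SE 0.08, adjusted p = 0.00122), or 2.88-fold, with 1.23 in its second probe set, which passed as well. Dkk1, Dkk2 and Dkk4 measured 2.92, 2.67 and 2.47 in Thy1-negative and 2.95, 2.67 and 2.47 in Thy1-positive cells, at or near the 25th percentile.

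Inside the cell, neither the Axin scaffolds nor the TCF/LEF factors passed. Axin1, part of the complex that degrades beta-catenin, measured 9.97, 10.31 and 10.03 against 9.66, 10.10 and 9.85 and overlapped (-0.23, SE 0.15), while a dimmer probe set differed by 0.67 (adjusted p = 0.0697 over all probe sets). Axin2, a feedback inhibitor that is itself a widely used readout of beta-catenin activity, measured 6.74, 7.36 and 6.90 against 6.16, 7.25 and 6.55. Within each fraction the array numbered 2 was the highest, and the difference of Axin2 was -0.35 (95% interval -1.25 to 0.56). Tcf7l1, mainly a repressor, was at 8.11 against 8.08 (95% interval -0.27 to 0.23). Tcf7l2 measured 8.67, 8.14 and 8.71 against 7.31, 7.98 and 7.72, did not overlap and missed the test (-0.84, SE 0.25, adjusted p = 0.0620), and passed without N2 (-1.02). Lef1 split the arrays across the fractions: N2, P1 and P3 were at 4.81, 4.88 and 4.93, and N1, N3 and P2 at 2.49, 2.77 and 2.92. The difference of Lef1, 0.88 (SE 0.91), did not pass. It was 2.27 without both arrays numbered 2, a setting chosen after seeing the data that leaves 2 arrays per fraction. N2 and P2 were the arrays that differed from the rest of their fraction. Leaving them out therefore fixes the outcome and does not test the difference.

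Probe sets of the same gene were compared for the 34 Wnt genes that have several. In 10 of these the probe sets differed in their call, and in 0 were they called in opposite directions. For Fzd1, Fzd7, Fzd8, Lgr4 and Wnt7b the second probe set lay below the array median in both fractions and did not pass (-0.14, 0.03, -0.16, 0.00 and 0.01). That of Fzd5 was above the median (4.90 to 4.94 against 4.94 to 5.43) and differed by 0.27 without a call, against -2.57 in the kept probe set. Fzd6 had a second probe set that fell as well (-1.19, adjusted p = 0.0422 over all probe sets) and another one below the 25th percentile. Among the genes that passed, Wnt6, Wnt5a, Fzd3, Fzd6, Dkk3 and Rspo2 therefore had at least 1 other called probe set of the same direction. For Wnt6 that probe set is of a type that can cross-hybridise.

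**Figure D3:**
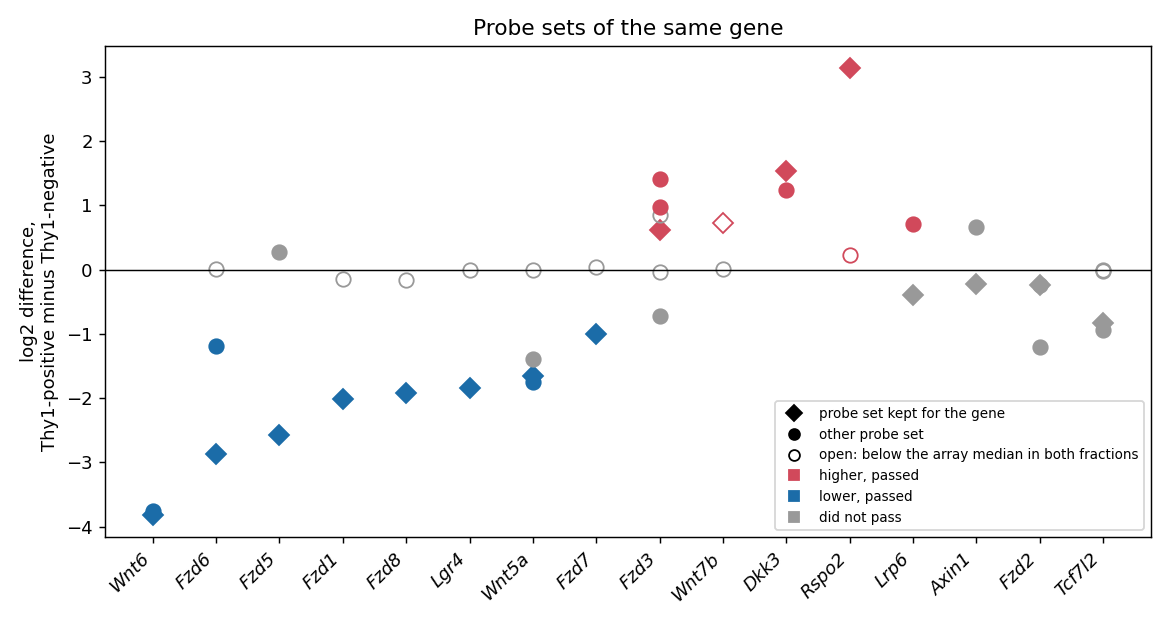
Log2 difference (vertical axis) of each probe set of the called Wnt genes with several probe sets, and of Lrp6, Axin1, Fzd2 and Tcf7l2, with diamonds for the probe set kept, circles for others, open symbols for probe sets below the array median in both fractions and colours for the call. Wnt6, Wnt5a, Fzd6, Dkk3, Rspo2 and Fzd3 have at least 1 further called probe set of the kept direction, the second probe sets of Fzd1, Fzd7, Fzd8, Lgr4 and Wnt7b are open symbols between -0.16 and 0.03, and Lrp6 and Axin1 have probe sets on both sides of 0.

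Promoters are shown for the 6 called genes with a window in the sequence table: Wnt6, Fzd1, Fzd5, Fzd7 and Lgr4, which fell together, beside Sfrp2, which rose. They are the 250 bases before the annotated start, 5′ to 3′ on the strand of the gene, from RefSeq on GRCm38.p6, and lie at chr1:74771642-74771891 (plus strand), chr5:4758217-4758466 (minus), chr1:64737751-64738000 (minus), chr1:59481897-59482146 (plus), chr2:109917397-109917646 (plus) and chr3:83766071-83766320 (plus). Capitals mark 3 motifs searched on both strands: the TCF/LEF core CTTTGA, the CCAAT box CCAAT and the GC box GGGCGG.
Wnt6: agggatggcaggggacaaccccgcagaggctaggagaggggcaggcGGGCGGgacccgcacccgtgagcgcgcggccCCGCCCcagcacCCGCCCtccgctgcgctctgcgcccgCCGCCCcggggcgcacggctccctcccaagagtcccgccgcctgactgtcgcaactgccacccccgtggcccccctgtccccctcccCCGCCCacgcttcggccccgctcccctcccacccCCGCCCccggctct
Fzd1: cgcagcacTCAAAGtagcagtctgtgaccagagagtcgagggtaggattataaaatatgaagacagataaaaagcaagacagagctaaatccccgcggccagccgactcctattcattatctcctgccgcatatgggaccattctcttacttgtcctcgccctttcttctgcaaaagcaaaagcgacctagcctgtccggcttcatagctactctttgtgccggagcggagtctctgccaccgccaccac
Fzd5: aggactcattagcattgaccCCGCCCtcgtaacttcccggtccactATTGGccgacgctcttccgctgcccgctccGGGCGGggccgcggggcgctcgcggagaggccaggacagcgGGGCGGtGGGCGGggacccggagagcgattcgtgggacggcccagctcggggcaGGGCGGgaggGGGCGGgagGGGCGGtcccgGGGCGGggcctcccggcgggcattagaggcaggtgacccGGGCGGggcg
Fzd7: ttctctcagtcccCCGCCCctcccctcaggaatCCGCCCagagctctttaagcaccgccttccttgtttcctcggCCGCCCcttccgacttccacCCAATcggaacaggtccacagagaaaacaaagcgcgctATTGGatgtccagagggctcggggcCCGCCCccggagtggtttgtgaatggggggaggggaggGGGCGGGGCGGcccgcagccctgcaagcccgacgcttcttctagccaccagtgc
Lgr4: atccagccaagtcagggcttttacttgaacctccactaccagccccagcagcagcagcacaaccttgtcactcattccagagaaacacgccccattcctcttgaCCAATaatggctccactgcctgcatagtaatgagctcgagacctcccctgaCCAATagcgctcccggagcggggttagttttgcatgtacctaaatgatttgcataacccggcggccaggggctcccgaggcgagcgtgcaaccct
Sfrp2: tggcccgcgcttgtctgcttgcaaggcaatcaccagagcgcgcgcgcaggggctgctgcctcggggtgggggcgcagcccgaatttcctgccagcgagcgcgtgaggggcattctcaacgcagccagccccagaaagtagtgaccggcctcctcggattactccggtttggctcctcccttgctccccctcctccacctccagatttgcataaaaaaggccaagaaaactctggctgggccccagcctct
The TCF/LEF core occurs in 1 of the 6, in Fzd1 (as TCAAAG on the printed strand), and the GC box 6 times each in Wnt6 and Fzd7 and 9 times in Fzd5. Lgr4 and Fzd7 have 2 CCAAT boxes each and Fzd5 has 1, and Sfrp2 holds none of the 3 motifs in this window. Promoter windows were matched by symbol for 34 of the 54 Wnt genes, with 41 windows. The TCF/LEF core was in 12.2% of these and in 13.8% of all 32851 windows of this length, the CCAAT box in 26.8% against 33.8%, and the GC box in 70.7% against 32.7%. The median GC content was 66.8% against 52.4%, and the part of this in the share of GC boxes was not tested.

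The other genes of the pathway were taken from 4 lists: the intracellular core, other surface and secreted factors, planar polarity and target genes. Of their 109 distinct genes 14 rose and 23 fell, 33.9% in all beside the 33.0% of all genes. Leaving out N1, N2 or N3 gave 7, 23 or 5 that rose and 13, 29 or 5 that fell, and leaving out P1, P2 or P3 gave 9, 9 or 6 and 12, 20 or 4. Calls over all genes moved as well. Without N1, N2 or N3, 1909, 4273 or 1473 of all genes rose and 1580, 3008 or 1302 fell. Without P1, P2 or P3, 1901, 2692 or 1350 rose and 1629, 2405 or 1163 fell. With all arrays these counts were 3368 and 2628. The Sertoli and macrophage lists above were measured on the same arrays, and their part in these counts was not tested.

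In the intracellular core 5 of 37 genes rose and 7 fell, 32.4% in all beside the 33.0% of all genes, with a median difference of 0.00. Ctnnb1, beta-catenin itself and a gene added after its values were seen, was bright throughout (14.02, 13.92 and 13.91 against 13.80, 13.56 and 13.61) and fell by 0.29 (SE 0.07, adjusted p = 0.0419), and the call held in 1 of the 6 fits without 1 array, that without P1, with -0.25 to -0.31 in the others. The corepressor Tle2 measured 7.17, 7.37 and 7.08 against 3.78, 5.65 and 3.97 and fell by 2.74 (SE 0.56, adjusted p = 0.0234), while its relative Tle3 rose by 1.40 (SE 0.28, adjusted p = 0.0229), from 8.99, 9.97 and 9.25 to 10.66, 10.85 and 10.90. Tle2 held only without P2 among the 6 fits, with -2.40 to -2.80 in the others, and Tle3 only without N2, with 1.19 to 1.47 in the others. Gsk3b, a kinase that marks beta-catenin for degradation, fell by 1.04 (SE 0.19), and lost its call without P2 (-1.04) or P3 (-0.96). The casein kinase gene Csnk1g3 fell by 1.71 (SE 0.27) and Csnk1g1 rose by 0.74 (SE 0.12), and both failed without N3 (-1.62 and 0.68) or P3 (-1.65 and 0.74). Dvl2, a Dishevelled gene that relays the Frizzled signal, rose by 0.88 (SE 0.21) and failed without N1 (0.87), N3 (0.78), P2 (0.73) or P3 (0.85).

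Among the other surface and secreted factors 2 of 34 rose and 9 fell, 32.4% in all beside the 33.0% of all genes (median 0.01). Shisa6, a Wnt inhibitor of spermatogonia, measured 7.04, 6.27 and 6.94 against 3.92, 3.44 and 3.37, and Tspan12, a partner of Fzd4, 6.32, 5.79 and 6.48 against 3.67, 3.67 and 3.62. In both the Thy1-positive arrays lay below the array median, and the decreases of 3.17 (SE 0.28) and 2.55 (SE 0.19) held in every fit without 1 array. Shisa6 thus moved opposite to the undifferentiated spermatogonia genes, of which 15 of 18 rose, beside 18.5% of all genes. Which cells gave its signal was not tested. Cpe, carboxypeptidase E, fell by 3.29 (SE 0.51) and failed without N3 (-3.26) or P3 (-3.01). Ptk7, a co-receptor of the polarity branch, rose by 1.12 (SE 0.13, adjusted p = 0.00619) in all 6 such fits, and Dact2, a Dishevelled-binding protein, by 1.35 (SE 0.23), with the call lost without N1 (1.37) or N3 (1.25). Wls, the carrier that brings Wnt ligands to the cell surface and a gene singled out after its values were seen, measured 10.37, 9.21 and 10.22 against 7.37, 8.17 and 7.74. The fractions did not overlap, and Wls fell by 2.17 (SE 0.40, adjusted p = 0.0179), or 4.51-fold, with the call lost without N1 (-1.96), N3 (-2.03), P1 (-1.98) or P3 (-2.16).

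Of 17 planar polarity genes 2 rose and 5 fell, 41.2% in all beside the 33.0% of all genes (median 0.00). Daam2, a formin that acts downstream of Dishevelled, fell by 3.70 (SE 0.71), from 9.64, 10.02 and 9.74 to 4.98, 7.54 and 5.79, and failed without N1 (-3.78), N3 (-3.73) or P3 (-3.54). The polarity cadherin Celsr1 fell by 2.85 (SE 0.50), failing without N3 (-2.83), P1 (-2.62) or P3 (-2.71), and Invs, inversin, by 1.43 (SE 0.28), failing without N1 (-1.33), N3 (-1.29), P1 (-1.23) or P3 (-1.52). Ankrd6, known as diversin, measured 6.20, 6.79 and 6.38 against 8.59, 8.60 and 8.65 and rose by 2.16 (SE 0.16, adjusted p = 0.00272), also in each fit without 1 array. The GTPase gene Rac1 rose by 0.35 (adjusted p = 0.0499), and its call held in the fit without N2, with 0.29 to 0.38 in the other 5 fits.

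Of 26 genes used as Wnt targets 5 rose and 3 fell, 30.8% in all beside the 33.0% of all genes (median 0.06). Znrf3, a target that removes Frizzled receptors from the surface, measured 10.04, 9.63 and 9.61 against 7.70, 7.71 and 7.54 and fell by 2.11 (SE 0.14, adjusted p = 0.00205). It held in every fit without 1 array, as did the rises of Cd44 (3.59, SE 0.25), an adhesion receptor also found on leukocytes, and Fst (2.63, SE 0.22), the activin antagonist follistatin. Cd44 measured 4.59, 4.06 and 4.82 against 7.86, 8.35 and 8.03, and Fst 6.89, 6.66 and 6.95 against 9.81, 9.06 and 9.52. Tiam1, a Rac activator, fell by 1.15 (SE 0.19), failing without N3 (-1.13), P1 (-1.07) or P3 (-1.13). Myc fell by 1.08 (SE 0.26) and held in the fit without N2, with -0.90 to -1.17 in the other 5. Plaur, the urokinase receptor, rose by 1.09 (SE 0.27) and held in the fit without P2, with 0.85 to 1.09 in the other 5. Sp5 and Fosl1, named after their values were seen, rose as well. Sp5 was dim (2.53, 2.53 and 2.53 against 2.89, 2.91 and 2.89). It rose by 0.37 (SE 0.01, adjusted p = 0.000415) and held in all 6 fits. Fosl1 rose by 0.91 (SE 0.15, adjusted p = 0.0134) and failed without N1 (0.86), N3 (0.83) or P3 (0.83). Called targets of this list therefore went in both directions, in a share near that of all genes, and Axin2, given above, did not pass.

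**Figure D4:**
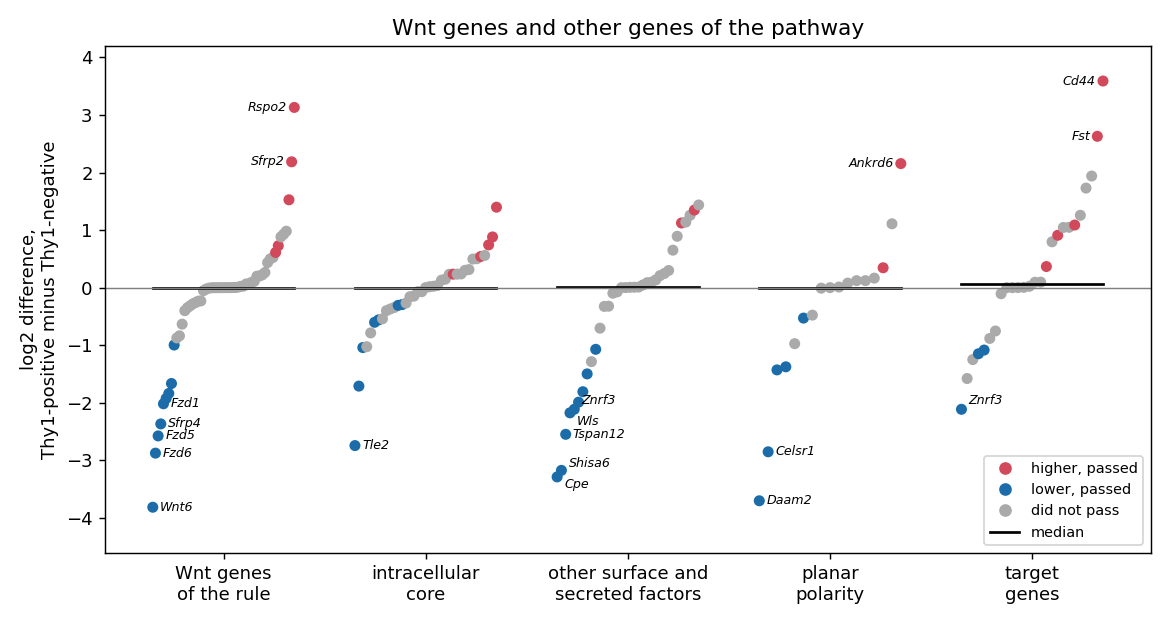
Log2 difference (Thy1-positive minus Thy1-negative, vertical axis) of the 54 Wnt genes and of the genes of 4 other lists of the pathway, sorted within each list, with red for genes that rose, blue for genes that fell, grey for genes that did not pass and a black line for the median. Each list holds genes of both directions, its median lies between 0.00 and 0.06, and called genes that moved by more than 2 are named.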

How the data were processed

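RNA of 6 testis cell samples was measured on Affymetrix arrays, 1 array per sample, 3 per fraction. The deposited table gives 1 linear intensity per probe set and array, already normalized by the authors. Per the submitters' processing notes the tool was GCRMA, with no version, whereas the sample descriptions in the labels speak of other Affymetrix software; which made the table is not settled, and detection calls were not used here. Of 45101 probe sets 64 controls were left out; 34945 had 1 gene symbol in the platform annotation, 932 several and 9160 none. Of the 54 Wnt genes all had an Entrez match in RefSeq and 0 symbols were updated. The analysis used log2(intensity + 1) and neither normalized nor filtered further. Values near background hardly vary between these arrays, so small differences there can pass or fail by scaling alone. Each of 18193 genes was represented by its brightest probe set on average. Fractions were compared with limma 3.58.1 (lmFit, eBayes, R 4.3.3), fraction as the single term, 2-sided, with Benjamini-Hochberg adjustment at 0.05 over all genes; statements on other probe sets are adjusted over all 45037. SD is between samples, and SE is that of limma, whose variance for a gene also draws on all genes. The fit was tested on simulated data with independent noise, in which only a small share of genes, all bright, was changed. That test does not cover genes near background or changes as widespread as those here. With 3 arrays per fraction, their number limits the precision. Arrays of equal number were not treated as pairs. All Wnt genes are named whatever their values, besides Thy1, up to 3 called genes per direction with the largest changes in each pathway list and the sums of each cell type list. Ctnnb1, Wls, Sp5 and Fosl1 were added after their values were seen. The members and lists were chosen with earlier results of these data known. Alternatives changed the scaling, low values, pseudocount, variance model, probe set choice, block and arrays.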

Additional observations from a re-analysis of the deposited data

How the results depend on the processing

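All 14 called Wnt genes kept their direction in every setting run. The count of higher Wnt genes was 8 with quantile normalization, 25 with arrays centred on their median, 17 with array weights (whose estimation stopped before convergence) and 3 with the replicate block, against 5; that of lower ones was 19 with array weights and 3 with the block, against 9, and 9 with median centring. Higher calls were thus 73.5% of called Wnt genes with median centring and 47.1% with quantile normalization, against 35.7%. Of 20 Wnt genes that gained a call by median centring, 18 lay below the array median in both fractions; among them Wnt1 changed from -0.00 to 0.12. Median centring moved the median of all genes from 0.01 to 0.13 and housekeeping centring to -0.11. The 4 pathway lists gave 42 higher genes with median centring, 42 higher and 47 lower with array weights, and 7 and 6 with the block, and all genes 10441 higher with median centring, 7518 and 4750 with array weights, and 931 and 548 with the block, against 3368 and 2628. For all genes, higher calls were 79.7% with median centring and 47.5% with housekeeping centring, against 56.2%. Without 1 array, 4 to 6 Wnt genes were higher and 3 to 11 lower, 5 to 23 and 4 to 29 genes of the lists, and 1350 to 4273 and 1163 to 3008 of all genes. Without both arrays numbered 3, chosen after seeing the data, 0 Wnt genes were higher and 1 (Fzd5, -2.33) lower, the lists gave 0 and 0, and all genes 149 and 61; the fit then has 2 arrays per fraction. Deviations from the fraction mean correlated at -0.16, -0.17 and -0.04 between arrays of equal number. The labels do not state whether equal numbers share a preparation, and these few correlations cannot decide it. With the number as a block, 6 of the 14 genes passed. When the probe sets of a gene were averaged, Fzd1 (-1.08) and Fzd3 (0.51) did not pass. Rspo4 and Tcf7l2 passed under some settings, for example 1.08 for Rspo4 with quantile normalization and -0.84 for Tcf7l2 among genes above the median. Dim probe sets limit what can be seen of 25 Wnt genes.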
